A study of Mus musculus with 18 samples.

Results

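The genes described are 6 that make, store, take up or break down histamine and serotonin: Hdc, Tph1, Slc18a2, Slc6a4, Hnmt and Maob. They were chosen by name, and every array probe annotated to them was followed, 9 probes of 45281 and 6 genes of the 19057 that the probe annotation names. Of these, 5 were detected and tested among 10529 genes; the probe of Hnmt was not detected on any complete array. RNA came from mast cells cultured from bone marrow of C57BL/6J mice (labelled age 4 to 6 weeks) and was hybridised to Illumina bead arrays, 3 arrays for each of 6 groups. The groups were ST2KO cells with IL-33 for 4 h, with IgE activation for 4 h or unstimulated, and WT cells with IL-33 for 4 h, with IgE activation for 4 h or unstimulated. ST2 is the receptor chain that binds the cytokine IL-33; its gene, Il1rl1, was not analysed here, so the genotype labels could not be checked against it. The labels do not say how IgE was crosslinked, at what dose IL-33 was given, or whether the 3 arrays of a group came from separate mice, so p-values measure the spread between these arrays.

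Mast cells keep histamine, and in rodents also serotonin, in secretory granules and release them when antigen crosslinks IgE bound to its receptor on the cell surface. Hdc encodes histidine decarboxylase, which makes histamine from histidine, and Tph1 encodes the tryptophan hydroxylase that starts serotonin synthesis outside the brain. Slc18a2 encodes VMAT2, which pumps both amines into granules, and Slc6a4 encodes SERT, which takes serotonin back up from outside the cell. Hnmt methylates histamine inside cells, and Maob encodes monoamine oxidase B, a mitochondrial enzyme that oxidises amines.

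The promoter windows of the members whose transcripts changed, and of Slc18a2, which did not pass any test, are shown so that their short motifs can be compared. They run from 250 bases before to 50 bases after the start site in RefSeq (build GRCm38.p6); 5 of the 6 members had an entry, with 2 start sites for Tph1. Positions are counted from the start site, with no position 0. Capitals mark matches, on either strand, to 8 kinds of motif. They are the GATA motif (the letters GATA after A or T and before A or G), the E-box (CACGTG, with CATGTG also allowed), the cyclic AMP response element or CRE (TGACGTCA), the AP-1 motif (TGANTCA), the NF-kB consensus, the GC box (GGGCGG), the CCAAT box and the TATA box (TATAAA). No 2 matches in the windows shown overlapped.
Hdc, chr2:126618629-126618928, minus strand: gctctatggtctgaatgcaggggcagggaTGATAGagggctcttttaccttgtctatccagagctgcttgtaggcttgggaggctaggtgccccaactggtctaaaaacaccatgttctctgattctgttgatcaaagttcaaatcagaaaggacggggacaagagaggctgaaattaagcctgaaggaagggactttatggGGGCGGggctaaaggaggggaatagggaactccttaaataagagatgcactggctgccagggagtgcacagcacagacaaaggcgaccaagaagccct
Tph1 start 1, chr7:46672488-46672787, minus strand: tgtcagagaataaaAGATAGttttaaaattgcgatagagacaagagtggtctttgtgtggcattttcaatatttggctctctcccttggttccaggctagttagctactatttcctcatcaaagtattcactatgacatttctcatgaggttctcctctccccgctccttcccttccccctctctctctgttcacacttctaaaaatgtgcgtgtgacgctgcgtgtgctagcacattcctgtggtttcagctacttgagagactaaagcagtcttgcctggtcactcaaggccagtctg
Tph1 start 2, chr7:46667328-46667627, minus strand: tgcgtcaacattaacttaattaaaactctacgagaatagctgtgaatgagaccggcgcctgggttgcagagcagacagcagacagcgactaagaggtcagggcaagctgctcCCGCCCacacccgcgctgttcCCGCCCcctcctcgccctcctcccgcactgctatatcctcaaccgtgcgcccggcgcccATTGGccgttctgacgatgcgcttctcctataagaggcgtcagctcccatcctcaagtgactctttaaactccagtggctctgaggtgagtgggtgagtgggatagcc
Slc6a4, chr11:76998347-76998646, plus strand: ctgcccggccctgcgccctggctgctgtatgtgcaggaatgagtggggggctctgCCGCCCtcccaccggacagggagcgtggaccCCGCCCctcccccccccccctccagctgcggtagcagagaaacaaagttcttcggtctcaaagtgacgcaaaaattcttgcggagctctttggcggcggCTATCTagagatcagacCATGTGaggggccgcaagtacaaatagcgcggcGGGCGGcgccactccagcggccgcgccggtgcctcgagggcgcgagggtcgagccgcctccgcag
Slc18a2, chr19:59260628-59260927, plus strand: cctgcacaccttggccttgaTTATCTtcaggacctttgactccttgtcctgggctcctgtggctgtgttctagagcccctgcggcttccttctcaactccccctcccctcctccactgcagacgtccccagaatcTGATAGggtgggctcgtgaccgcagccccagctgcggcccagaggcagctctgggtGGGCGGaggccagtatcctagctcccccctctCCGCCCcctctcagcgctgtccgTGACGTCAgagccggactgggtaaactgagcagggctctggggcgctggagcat

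The Hdc window held a GATA match at -221 to -216 and a GC box at -48 to -43. The Tph1 windows differed: start 1 held a GATA match at -236 to -231, and start 2 held 2 GC boxes and an inverted CCAAT at -58 to -54. The Slc6a4 window held a GATA match at -65 to -60, an E-box at -48 to -43 and 3 GC boxes. The Slc18a2 window held a CRE across the start site, at -4 to 4, with 2 GATA matches and 2 GC boxes. Of 32851 RefSeq promoter windows of the same length, 29.8% held a GATA match, 20.4% an E-box, 1.79% a CRE, 35.7% a GC box and 37.4% a CCAAT. No window shown held the AP-1, NF-kB or TATA box letters searched, which 7.81%, 8.46% and 13.6% of all windows held.

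Levels are log2 intensities after background correction and quantile normalization, and the median probe of every array lay at 4.43. Median raw intensities were 86.4 to 97.9 on the 17 complete arrays, of whose probes 35.1% to 38.6% were detected. ST2KO IgE replicate 3 held intensities for 10012 of 45281 probes and for none of the 9 probes described, so its levels were placed by their rank in the authors' log2 table. The arrays numbered 3 stood apart: within a group, arrays 1 and 2 correlated at 0.992 to 0.994 across tested genes, and arrays 1 and 3 at 0.935 to 0.968. Of the 9 mast cell markers, all tested, Kit, Fcer1a, Cpa3, Tpsb2 and Cma1 lay at 13.52 to 15.19 on all 18 arrays, while Ms4a2 ranged from 10.04 to 12.10, Mrgprb2 from 8.81 to 12.46, Tpsab1 from 7.04 to 10.97 and Mcpt4 from 6.98 to 14.63. Of 10 macrophage and dendritic cell markers 6 were tested, and their summed linear level was highest on array 3 in each group, reaching 1933, 1536 and 1805 in ST2KO cells with IL-33, IgE or neither, against 6922, 3692 and 5059 in WT cells. Of these 6, Cd74 reached 11.71 on the log2 scale, H2-Ab1 11.30, Lyz2 9.57 and Adgre1 8.65, while Csf1r and Cd14 stayed at or below 5.25. Among the markers not tested, Fcgr1, Itgax and Mrc1 were detected on 2, 1 and 0 complete arrays, and Cd68 had no probe. The sum of 4 of 5 basophil markers was also highest on array 3 in each group, at 9067, 9029 and 9105 in ST2KO cells with IL-33, IgE or neither, against 7135, 9019 and 8773 in WT cells, with lows of 5529 to 6635 in the groups. Cd200r3 was the highest of the 4, at 11.96 to 12.85 on the log2 scale. Mcpt8 lay at 6.01 to 10.33, Prss34 at 4.67 to 10.22 and Il3ra at 7.68 to 9.88, and Itga2 was detected on 0 complete arrays. Basophils also express Hdc. The sums of 4 platelet and megakaryocyte markers and of 3 erythroid markers were lowest on array 3 in each group. Of 8 neutrophil markers, none was detected on more than 3 arrays. The part of these markers in the results was not tested.

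In WT cells, IL-33 raised 3 of the 5 tested members, Slc6a4 by 7.34-fold, Hdc by 5.36-fold and Tph1 by 1.88-fold, where 5.09% of all genes tested rose and 11.8% changed in either direction. IgE raised Hdc by 6.83-fold and lowered Tph1 to 0.655 of its unstimulated level in WT cells, 2 of 5 members where 5.33% of all genes rose, 6.53% fell and 11.9% changed. In ST2KO cells IgE raised Hdc alone among the members (5.48% of all genes rose and 12.6% changed), and none passed with IL-33; limma called 0% of all genes there, 0 at the adjusted threshold and 155 at an unadjusted p under 0.05. With IL-33, ST2KO cells had lower Hdc, Tph1 and Slc6a4 than WT cells, 3 of 5 members where 5.13% of all genes were lower and 11.6% changed. IL-33 gave higher Tph1 and Slc6a4 than IgE in WT cells (2 of 5, where 2.16% of all genes were higher and 4.43% differed) and lower Hdc than IgE in ST2KO cells (1 of 5, where 4.97% of all genes were lower and 10.8% differed). No member passed the test of ST2KO against WT cells without stimulation or with IgE, where 0.0095% of all genes tested were called in either case. Comparisons that share a group are not independent, since the same arrays enter both.

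**Figure D1:**
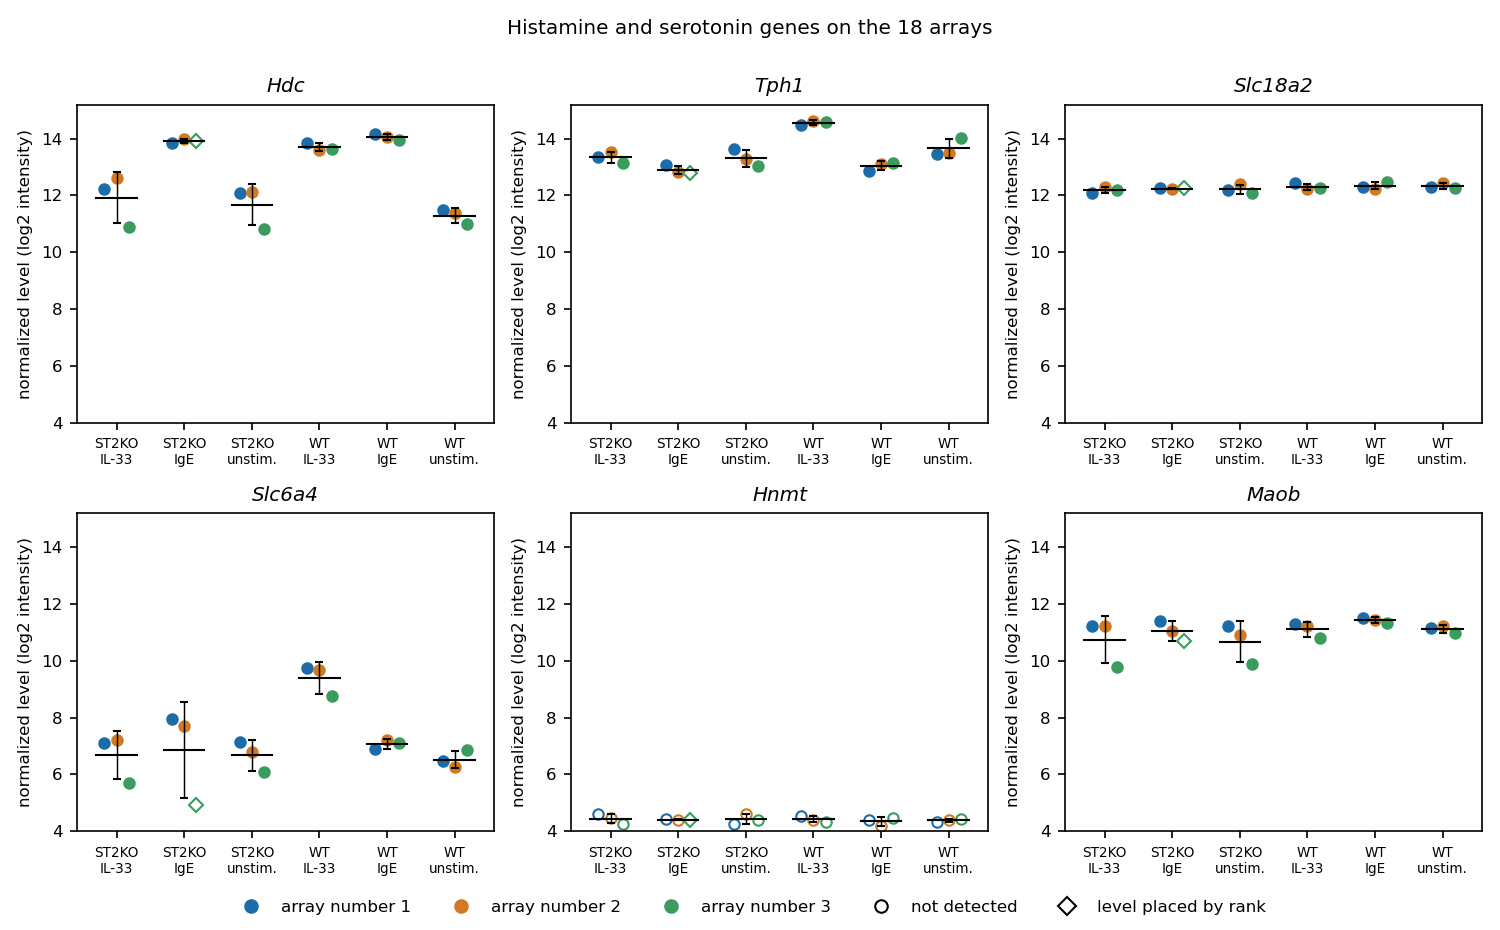
Normalized log2 level of each gene (vertical axis) on the 18 arrays by group, with the group mean as a bar and the SD as whiskers (n = 3 arrays). Colours mark the array number, open circles mark arrays without detection, and open diamonds mark the array whose levels were placed by rank. Hdc is high in 3 groups, Tph1 and Slc6a4 in WT cells with IL-33, and Slc18a2 lies between 12.08 and 12.48 throughout.

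Hdc, the histamine-forming enzyme, was high with IgE in either genotype and with IL-33 in WT cells. Its levels were 13.85, 13.98 and 13.93 (placed by rank) in ST2KO cells with IgE, and 12.09, 12.11 and 10.83 in unstimulated ST2KO cells. They were 14.15, 14.05 and 13.96 in WT cells with IgE, against 11.48, 11.40 and 10.98 in unstimulated WT cells. Every IgE array lay above every unstimulated array of its genotype. Each group held n = 3 arrays here and in every fit that left out no array. The log2 difference between IgE and no stimulation was 2.24 ± 0.36 in ST2KO cells (SE, adjusted p = 0.00120) and 2.77 ± 0.36 in WT cells (adjusted p = 0.000260). The difference between these 2 responses, -0.53 ± 0.52 (95% interval -1.63 to 0.57), did not pass (adjusted p = 1.0); limma called 0% of all genes for it, with 133 at an unadjusted p under 0.05. These are RNA amounts of whole cultures, in which more expressing cells and more RNA per cell cannot be told apart. Fits given below without the arrays numbered 3 held only 2 arrays per group. Those arrays correlated at 0.992 to 0.994 within a group, and the p-values of such fits rest on that narrow spread. Fits that left out an array had fewer arrays in its group.

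With IL-33, Hdc stood at 12.22, 12.61 and 10.90 in ST2KO cells and at 13.86, 13.61 and 13.64 in WT cells, with no overlap. IL-33 against no stimulation differed by 0.23 ± 0.36 in ST2KO cells (95% interval -0.55 to 1.01, adjusted p = 1.0) and by 2.42 ± 0.36 in WT cells (adjusted p = 0.000571). ST2KO cells with IL-33 were 3.47-fold below WT cells with IL-33 (log2 -1.80 ± 0.36, adjusted p = 0.00499). The IL-33 response itself was smaller in ST2KO cells by 2.19 ± 0.52 on the log2 scale (adjusted p = 0.0379), 1 of 5 members called where 1.46% of all genes had a lower and 2.72% a different response. Within ST2KO cells, Hdc was 4.03-fold lower with IL-33 than with IgE (log2 -2.01 ± 0.36, adjusted p = 0.00292). In WT cells, IL-33 and IgE differed by -0.35 ± 0.36 (95% interval -1.13 to 0.43, adjusted p = 0.795), and by -0.37 ± 0.12 without the 6 arrays numbered 3 (adjusted p = 0.0302).

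In the order of means, Hdc ran from WT cells with IgE through ST2KO cells with IgE to WT cells with IL-33, each range overlapping the next. The ranges of WT cells with IL-33 (13.61 to 13.86) and with IgE (13.96 to 14.15) did not overlap each other. Below WT cells with IL-33, a gap followed before ST2KO cells with IL-33, unstimulated ST2KO cells and unstimulated WT cells, whose ranges overlapped again. Array 3 was lower than the mean of arrays 1 and 2 by 1.52 in ST2KO cells with IL-33 and by 1.27 in unstimulated ST2KO cells. Without the 6 arrays numbered 3, unstimulated ST2KO cells were above unstimulated WT cells by 0.66 ± 0.12 (adjusted p = 0.000925) and the IgE response was smaller in ST2KO cells by 0.85 ± 0.17 (adjusted p = 0.0324). The calls of lower Hdc in ST2KO cells with IL-33, against WT cells and against IgE, were lost when only the compared groups were fitted (adjusted p = 0.0703 and 0.0580). The call on the IL-33 responses was lost in 12 of 18 fits that left out an array (adjusted p 0.0513 to 0.108); it was kept without ST2KO IL-33 replicate 2 or 3 or without replicate 3 of ST2KO IgE, ST2KO unstimulated, WT IL-33 or WT IgE.

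Tph1, the enzyme that starts serotonin synthesis, moved in opposite directions with the 2 stimuli in WT cells. It stood at 14.47, 14.63 and 14.59 in WT cells with IL-33, at 12.86, 13.12 and 13.14 in WT cells with IgE, and at 13.44, 13.48 and 14.04 in unstimulated WT cells. All IL-33 arrays were above and all IgE arrays below the unstimulated arrays. IL-33 raised the level by 0.91 ± 0.17 (adjusted p = 0.00306), with IgE it fell by 0.61 ± 0.17 (adjusted p = 0.0315), and IL-33 exceeded IgE by 1.52 ± 0.17, or 2.87-fold (adjusted p = 0.000135). The fall with IgE was lost without WT IgE replicate 1 or 2 or WT unstimulated replicate 3 (adjusted p = 0.134, 0.0735 and 0.132), under median scaling (adjusted p = 0.102), without the detection filter (adjusted p = 0.0567) and with the compared groups alone (adjusted p = 0.0674).

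In ST2KO cells Tph1 stood at 13.37, 13.53 and 13.14 with IL-33, at 13.05, 12.84 and 12.80 (placed by rank) with IgE, and at 13.62, 13.27 and 13.04 unstimulated. The IL-33 and unstimulated arrays overlapped, and the highest IgE array was level with the lowest unstimulated one. IL-33 against no stimulation differed by 0.04 ± 0.17 (95% interval -0.33 to 0.40, adjusted p = 1.0). IgE against no stimulation differed by -0.41 ± 0.17 (adjusted p = 0.137, and 0.0134 with the replicate number as a block), and IL-33 against IgE by 0.45 ± 0.17 (adjusted p = 0.114, and 0.00871 with the block). Without the 6 arrays numbered 3 both also passed (adjusted p = 0.00248 and 0.00256, in that order). With IL-33, ST2KO cells were 2.32-fold below WT cells (log2 -1.22 ± 0.17, adjusted p = 0.000417). The difference between the genotypes' IL-33 responses was -0.87 ± 0.24 (adjusted p = 0.0716, and 0.00222 with the block). Without ST2KO or WT unstimulated replicate 3 it also passed (adjusted p = 0.0489 and 0.0215).

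Slc18a2, the vesicle pump for both amines, kept nearly the same level on all arrays. It lay at 12.09 to 12.29 in ST2KO cells with IL-33, 12.23 to 12.25 with IgE and 12.08 to 12.39 unstimulated, and at 12.22 to 12.42, 12.23 to 12.48 and 12.26 to 12.44 in WT cells in the same order. All 6 ranges overlapped their neighbours in the order of means. No comparison passed the test; the log2 differences between groups ran from -0.12 ± 0.11 (ST2KO against WT with IL-33, adjusted p = 0.542) to 0.03 ± 0.11 (IgE against no stimulation in ST2KO cells, adjusted p = 0.911). The 95% interval of the IL-33 effect was -0.26 to 0.19 in ST2KO cells and -0.25 to 0.20 in WT cells.

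Slc6a4, the serotonin transporter of the cell surface, was high only in WT cells with IL-33. Its levels there were 9.73, 9.69 and 8.76, against 7.12, 7.23 and 5.70 in ST2KO cells with IL-33 and 6.45, 6.25 and 6.85 in unstimulated WT cells. No array of another group reached 8.76. IL-33 raised it by 2.88 ± 0.63 in WT cells (adjusted p = 0.00744). ST2KO cells with IL-33 were 6.56-fold below WT cells with IL-33 (log2 -2.71 ± 0.63, adjusted p = 0.0110), a call lost without WT IL-33 replicate 1 or 2 (adjusted p = 0.0571 and 0.0535). In ST2KO cells IL-33 against no stimulation differed by 0.01 ± 0.63 (95% interval -1.33 to 1.35, adjusted p = 1.0), the unstimulated arrays lying at 7.13, 6.80 and 6.08.

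With IgE, Slc6a4 was at 7.96, 7.69 and 4.90 in ST2KO cells and at 6.89, 7.21 and 7.11 in WT cells. The 4.90 is the level placed by rank, 2.92 below the mean of the other ST2KO IgE arrays, so ST2KO cells held both the highest and the lowest IgE array. IgE against no stimulation differed by 0.18 ± 0.63 in ST2KO cells (adjusted p = 0.897) and by 0.55 ± 0.63 in WT cells (adjusted p = 0.645); without the array placed by rank, the ST2KO value was 1.15 ± 0.43 (adjusted p = 0.0879). Without all 6 arrays numbered 3 both passed, at 0.86 ± 0.18 in ST2KO cells (adjusted p = 0.000475) and 0.69 ± 0.18 in WT cells (adjusted p = 0.00333). These and the following values are of the brighter Slc6a4 probe. With all arrays, the dimmer one differed in the opposite direction with IgE in both genotypes, as given below. In WT cells IL-33 exceeded IgE by 2.33 ± 0.63 (adjusted p = 0.0486), or with adjusted p = 0.00223 without the array placed by rank. That call was lost in 12 of 18 fits that left out an array (adjusted p 0.0576 to 0.171) and kept in those without ST2KO IgE replicate 1, 2 or 3 or without replicate 3 of ST2KO IL-33, ST2KO unstimulated or WT IL-33. The difference between the genotypes' IL-33 responses was -2.87 ± 0.89 (adjusted p = 0.109), with adjusted p = 0.000851 under the replicate block and 0.0120 without the array placed by rank. Platelets also carry SERT. The platelet and megakaryocyte markers summed to 2086 to 3659 in WT cells with IL-33 and 2632 to 5818 in unstimulated WT cells. Most of that sum was Itga2b, at 10.27 to 12.47 on the log2 scale. Gp9 lay at 5.64 to 7.61, and Pf4 and Ppbp were detected on 6 and 3 complete arrays. The part of platelets in the Slc6a4 levels was not tested.

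Hnmt, the intracellular enzyme that inactivates histamine by methylation, was not detected on any of the 17 complete arrays. Its level of 4.18 to 4.62 was that of the median probe, so no change could be measured. Maob, the amine oxidase, was detected on all 17. Its levels were 11.22, 11.22 and 9.80 in ST2KO cells with IL-33, 11.42, 11.04 and 10.69 (placed by rank) with IgE, and 11.24, 10.91 and 9.88 unstimulated. In WT cells they were 11.29, 11.24 and 10.80 with IL-33, 11.52, 11.44 and 11.33 with IgE, and 11.15, 11.23 and 10.97 unstimulated. Array 3 was the lowest in each group, and the ST2KO and WT ranges overlapped with each stimulus and with none. No comparison passed: IgE against no stimulation differed by 0.37 ± 0.36 in ST2KO cells (adjusted p = 0.560) and by 0.31 ± 0.36 in WT cells (adjusted p = 0.646), and ST2KO against WT without stimulation by -0.44 ± 0.36 (95% interval -1.21 to 0.33, adjusted p = 1.0).

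**Figure D2:**
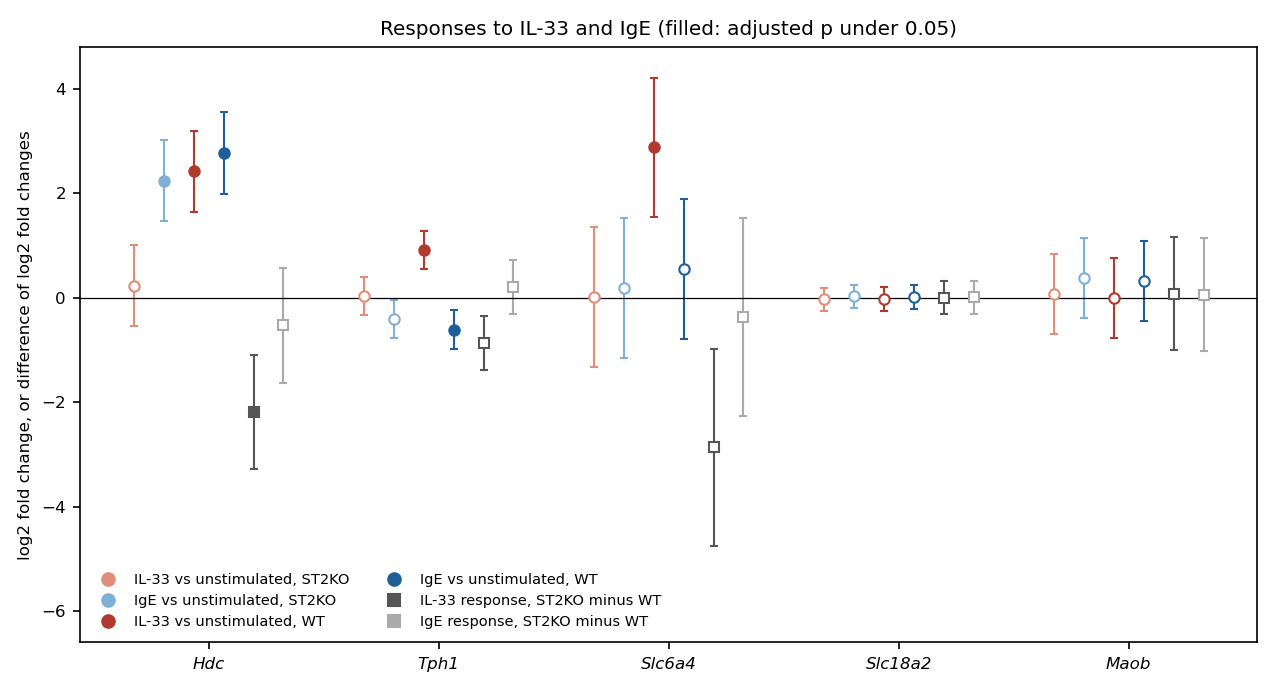
Log2 fold change of each tested gene with IL-33 or IgE against no stimulation (circles) and the difference of these responses, ST2KO minus WT (squares), with 95% intervals on the vertical axis; filled symbols passed an adjusted p of 0.05. Hdc has 4 filled symbols, its difference of IL-33 responses at -2.19 among them, and Slc18a2 and Maob have none.

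A further probe was present for Hdc, Slc6a4 and Maob, and these pairs differed in how closely they ran together. The dimmer Hdc probe followed the brighter one over the 18 arrays (r = 0.996) and gave larger differences: 2.996 ± 0.423 with IgE in ST2KO cells, 3.32 ± 0.42 with IgE in WT cells and 2.85 ± 0.42 with IL-33 in WT cells. It also passed for lower Hdc in ST2KO than in WT cells with IL-33 (log2 -2.22 ± 0.42, adjusted p = 0.00356) and for the difference of IL-33 responses (log2 -2.496 ± 0.598, adjusted p = 0.0440). The dimmer Slc6a4 probe (r = 0.890) rose by 1.54 ± 0.30 with IL-33 in WT cells (adjusted p = 0.00443), exceeded IgE by 1.84 ± 0.30 (adjusted p = 0.00236) and was lower in ST2KO than in WT cells with IL-33 (log2 -1.33 ± 0.30, adjusted p = 0.0113). With IgE against no stimulation this probe differed by -0.09 ± 0.30 in ST2KO cells (adjusted p = 0.895) and by -0.29 ± 0.30 in WT cells (adjusted p = 0.617). Both are opposite in sign to the brighter probe, and neither passed for either probe with all arrays. The dimmer Slc6a4 probe was detected on 15 of 17 arrays, with a mean level of 5.398. The dimmer Maob probe, also detected on 15 of 17 arrays with a mean of 5.18, ran less closely with the brighter one (r = 0.442) and gave no call. These correlations describe arrays that share groups and carry no test.

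**Figure D3:**
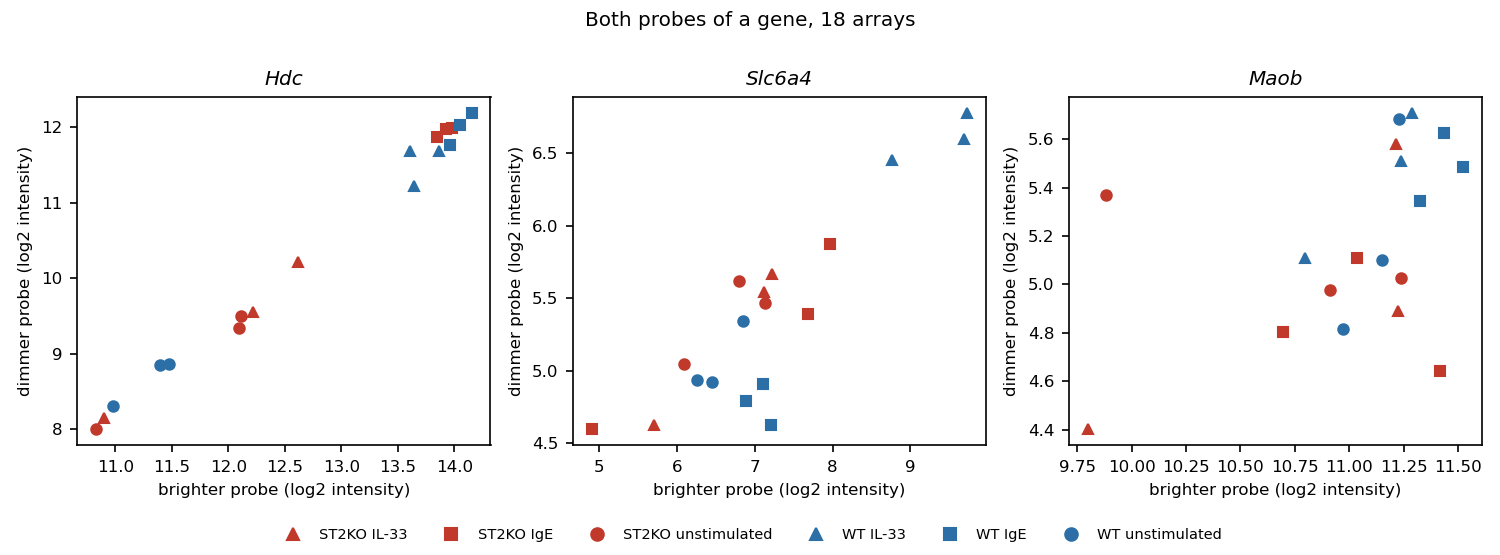
Log2 level of the brighter (horizontal axis) and dimmer (vertical axis) probe of Hdc, Slc6a4 and Maob on the 18 arrays, by genotype (colour) and stimulus (symbol); axes differ between panels. The Hdc points lie along a line, while the dimmer Maob probe stays between 4.40 and 5.71.

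Among other genes of amine synthesis and its cofactors, 8 of 12 listed were tested, and Pdxk was the one called. It was called in 5 comparisons, in which 10.8% to 12.6% of all genes were called. Pdxk encodes pyridoxal kinase, which makes the vitamin B6 cofactor of histidine decarboxylase. It stood at 7.59, 7.60 and 8.30 in ST2KO cells with IgE, against 9.49, 9.69 and 9.26 unstimulated, and at 7.63, 7.69 and 7.75 in WT cells with IgE, against 9.53, 9.64 and 9.13 unstimulated. No IgE array reached an unstimulated one. The difference was -1.65 ± 0.23 in ST2KO cells (adjusted p = 0.000414) and -1.75 ± 0.23 in WT cells (adjusted p = 0.000250). With IL-33 its levels were 9.33, 9.49 and 8.97 in ST2KO cells and 8.28, 8.32 and 8.92 in WT cells, higher in ST2KO cells by 0.76 ± 0.23 (adjusted p = 0.0419). Against no stimulation it fell by 0.93 ± 0.23 with IL-33 in WT cells (adjusted p = 0.0148); in ST2KO cells it was 1.43 ± 0.23 higher with IL-33 than with IgE (adjusted p = 0.00136). The fall with IL-33 in WT cells was lost without replicate 1 or 2 of WT IL-33 or of WT unstimulated (adjusted p 0.0600 to 0.0809), and the genotype difference in 9 of 18 fits that left out an array (adjusted p 0.0504 to 0.180). Those 9 left out replicate 1 or 2 of ST2KO IL-33 or WT IL-33, replicate 1 of ST2KO or WT unstimulated, or any WT IgE array. The genotype difference was also lost under median scaling, without the detection filter and with the compared groups only (adjusted p = 0.0665, 0.0686 and 0.154), and the fall with IL-33 in WT cells with the compared groups only (adjusted p = 0.0578). In WT cells IL-33 against IgE differed by 0.82 ± 0.23 (adjusted p = 0.0560, and 0.0179 with the replicate block).

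The cofactor of tryptophan hydroxylase is tetrahydrobiopterin, and Gch1, Pts and Qdpr encode enzymes that make or regenerate it. Gch1 differed with IgE by 0.78 ± 0.31 in ST2KO cells (adjusted p = 0.116) and by 0.79 ± 0.31 in WT cells (adjusted p = 0.116); with the replicate block these were 7.02e-05 and 6.18e-05. Pts differed with IgE by -0.86 ± 0.33 in ST2KO cells (adjusted p = 0.101, and 0.000519 with the block) and by -0.81 ± 0.33 in WT cells (adjusted p = 0.127, and 0.000868 with the block), and with IL-33 in WT cells by -0.95 ± 0.33 (adjusted p = 0.0749, and 0.000231 with the block). The ST2KO IgE value of Pts includes the array placed by rank; without it the difference was -1.25 ± 0.30 (adjusted p = 0.0123). Qdpr differed with IL-33 in WT cells by -0.58 ± 0.19 (adjusted p = 0.0574, and 0.00280 with the block). The Pts and Qdpr differences with IL-33 in WT cells also passed under median scaling (adjusted p = 0.0144 and 0.0472) and without the 6 arrays numbered 3 (adjusted p = 4.83e-07 and 0.000107). In ST2KO against WT cells with IL-33, Pts differed by 0.80 ± 0.33 (adjusted p = 0.134, and 0.00131 with the block) and Qdpr by 0.50 ± 0.19 (adjusted p = 0.108, and 0.00993 with the block). Their IL-33 responses differed between the genotypes by 0.94 ± 0.46 and 0.67 ± 0.27 (adjusted p = 0.373 and 0.239, and 0.00879 and 0.0209 with the block). IL-33 against IgE also passed with the block for Gch1 in ST2KO and WT cells (adjusted p = 0.000204 and 0.000567) and for Pts in ST2KO cells (adjusted p = 0.000647).

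Of the genes for storage and transport, 5 of 12 were tested, and the main fit called none of them with a stimulus within a genotype. In ST2KO against WT cells with IL-33, 2 of the 5 were lower, where 5.13% of all genes were lower and 11.6% changed. They were Atp6v1a, with a log2 difference of -0.62 ± 0.17 (adjusted p = 0.0248), and Atp6v0a1, with -0.66 ± 0.20 (adjusted p = 0.0482), subunits of the proton pump that acidifies granules. With IL-33 against no stimulation in WT cells both differed by 0.48 (adjusted p = 0.0721 for Atp6v1a and 0.141 for Atp6v0a1), which passed with the replicate block (adjusted p = 0.0166 and 0.0202, in that order). The Atp6v1a call was lost without replicate 1 or 2 of ST2KO IL-33 or of WT IL-33 (adjusted p 0.0754 to 0.119), and the Atp6v0a1 call in 16 of 18 fits that left out an array (adjusted p 0.0502 to 0.159), all but those without replicate 3 of ST2KO IL-33 or ST2KO unstimulated. The Atp6v1a call was also lost under median scaling (adjusted p = 0.108) and with the compared groups only (adjusted p = 0.129), and the Atp6v0a1 call with the compared groups only, without the detection filter, with the mean of probes, with each probe tested or without the trend (adjusted p 0.0519 to 0.203). Srgn, the core protein of the granule proteoglycan serglycin, differed by 0.06 ± 0.16 with IL-33 in ST2KO cells (adjusted p = 1.0) and by 0.26 ± 0.16 in WT cells (adjusted p = 0.326). Ndst2, which sulfates mast cell heparin, differed with IgE by -0.90 ± 0.34 in ST2KO cells (adjusted p = 0.0997) and by -0.94 ± 0.34 in WT cells (adjusted p = 0.0891); with the block these were 0.000569 and 0.000405. Its level on the array placed by rank was 13.10, against 11.62 and 11.66 on the other ST2KO IgE arrays, and without that array the ST2KO difference was -1.39 ± 0.27 (adjusted p = 0.00369) and the WT difference had an adjusted p of 0.0189. IL-33 against IgE passed for Ndst2 with the block in ST2KO and WT cells (adjusted p = 0.00110 and 0.0120).

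Of 11 further genes of breakdown, 3 were tested and none was called. Sult1a1, a sulfotransferase of phenols and amines, stood at 6.51, 7.35 and 4.45 in ST2KO cells with IgE, against 10.40, 10.89 and 5.63 unstimulated, and at 5.38, 5.81 and 4.32 in WT cells with IgE, against 8.56, 9.17 and 5.81 unstimulated. Array 3 was the lowest in each of these groups. The IgE difference was -2.87 ± 1.44 in ST2KO cells (adjusted p = 0.217, and 0.000139 with the block) and -2.67 ± 1.44 in WT cells (adjusted p = 0.261, and 0.000259 with the block). With IL-33, Sult1a1 stood at 10.28, 10.92 and 5.68 in ST2KO cells and at 6.08, 5.60 and 4.46 in WT cells, a difference of 3.58 ± 1.44 (adjusted p = 0.129, and 0.000607 with the block). Without the 6 arrays numbered 3 it was 4.76 ± 0.26 (adjusted p = 3.38e-13). IL-33 against no stimulation in WT cells differed by -2.47 ± 1.44 (adjusted p = 0.308, and 0.000528 with the block), IL-33 against IgE in ST2KO cells by 2.86 ± 1.44 (adjusted p = 0.235, and 0.000169 with the block). Responses to IL-33 differed between genotypes by 2.45 ± 2.04, ST2KO minus WT (adjusted p = 0.654, and 0.0145 with the block). Aldh2, an aldehyde dehydrogenase that acts after monoamine oxidase, differed with IgE by -0.26 ± 0.18 in ST2KO cells (adjusted p = 0.399, and 0.0252 with the block), and IL-33 against IgE there by 0.28 ± 0.18 (adjusted p = 0.361, and 0.0156 with the block). Aoc1, the diamine oxidase that degrades histamine outside cells, had a mean level of 4.47.

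Among 17 receptor genes 6 were tested, and Hrh4, the histamine H4 receptor, was lower with IgE in both genotypes. Its levels were 5.56, 5.94 and 6.89 in ST2KO cells with IgE, against 7.27, 7.54 and 8.14 unstimulated, and 6.30, 5.90 and 6.80 in WT cells with IgE, against 7.75, 7.68 and 8.10 unstimulated. The differences were -1.52 ± 0.41 in ST2KO cells (adjusted p = 0.0255) and -1.51 ± 0.41 in WT cells (adjusted p = 0.0257). In ST2KO cells Hrh4 was higher with IL-33 than with IgE by 1.72 ± 0.41 (adjusted p = 0.0146). Hrh4 was the only receptor gene of the 6 called, in comparisons in which 10.8% to 12.6% of all genes were called. With IL-33 in WT cells the difference from no stimulation was -1.10 ± 0.41 (adjusted p = 0.0982), and it passed with the block (adjusted p = 0.000416), under median scaling (adjusted p = 0.0147), with replicate 3 of WT IL-33 left out (adjusted p = 0.0133) and without the 6 arrays numbered 3 (adjusted p = 2.99e-06). With IL-33, ST2KO against WT cells differed by 1.10 ± 0.41 (adjusted p = 0.0991, and 0.000670 with the block). The response to IL-33 differed between genotypes by 1.30 ± 0.58, ST2KO minus WT (adjusted p = 0.308, and 0.00419 with the block). Leaving out a compared array could end each of these calls. That held for replicates 1 and 2 of WT IgE and each WT unstimulated array (adjusted p 0.0571 to 0.123), for replicates 1 and 2 of ST2KO IgE and 2 and 3 of ST2KO unstimulated (adjusted p 0.0606 to 0.121), and, for IL-33 against IgE, ST2KO IgE replicates 1 and 2 and ST2KO IL-33 replicate 3 (adjusted p 0.0581 to 0.0795). Both calls in ST2KO cells were lost with the compared groups only (adjusted p = 0.0909 for IgE and 0.0747 for IL-33 against IgE). The other receptor genes tested, among them Hrh2, Htr4 and Htr1f, were not called in any comparison with all arrays.

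Of 7 transcription factors known to act on Hdc or in mast cell identity, 5 were tested. Of these only Gata2 was called, for IgE in WT cells, where 6.53% of all genes fell and 11.9% changed. Gata2, a GATA factor required for mast cells, was lower with IgE in WT cells, at 13.40, 13.43 and 13.52 against 13.94, 13.91 and 13.81 unstimulated. The difference was -0.44 ± 0.13 (adjusted p = 0.0432), and -0.38 in ST2KO cells, where it had an adjusted p of 0.0776 and passed with the block (adjusted p = 0.00398) and without the array placed by rank (adjusted p = 0.0273). IL-33 against IgE passed with the block in ST2KO and WT cells (adjusted p = 0.0349 and 0.0135). The call in WT cells was lost in 12 of 18 fits that left out an array (adjusted p 0.0502 to 0.134), among them all fits without a WT IgE or WT unstimulated array, and without replicate 2 of ST2KO IL-33, replicate 1 or 2 of ST2KO IgE or WT IL-33, or replicate 1 of ST2KO unstimulated, and under median scaling, without the detection filter and without the trend (adjusted p = 0.0831, 0.0910 and 0.0618). Stat5a differed by 1.21 ± 0.64 with IL-33 in WT cells (adjusted p = 0.254, and 0.00516 with the block). Its WT IL-33 levels were 11.62, 11.61 and 9.14, against 9.90, 9.80 and 9.05 unstimulated, and without WT IL-33 replicate 3 the difference was 2.03 ± 0.55 (adjusted p = 0.0208). In ST2KO against WT cells with IL-33 it differed by -1.56 ± 0.64 (adjusted p = 0.133, and 0.00113 with the block), or by -2.39 ± 0.55 without that array (adjusted p = 0.00899), and IL-33 against IgE in WT cells by 1.498 ± 0.64 (adjusted p = 0.264, and 0.00196 with the block). Gata1 and Sp1 were not called in any comparison with all arrays.

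**Figure D4:**
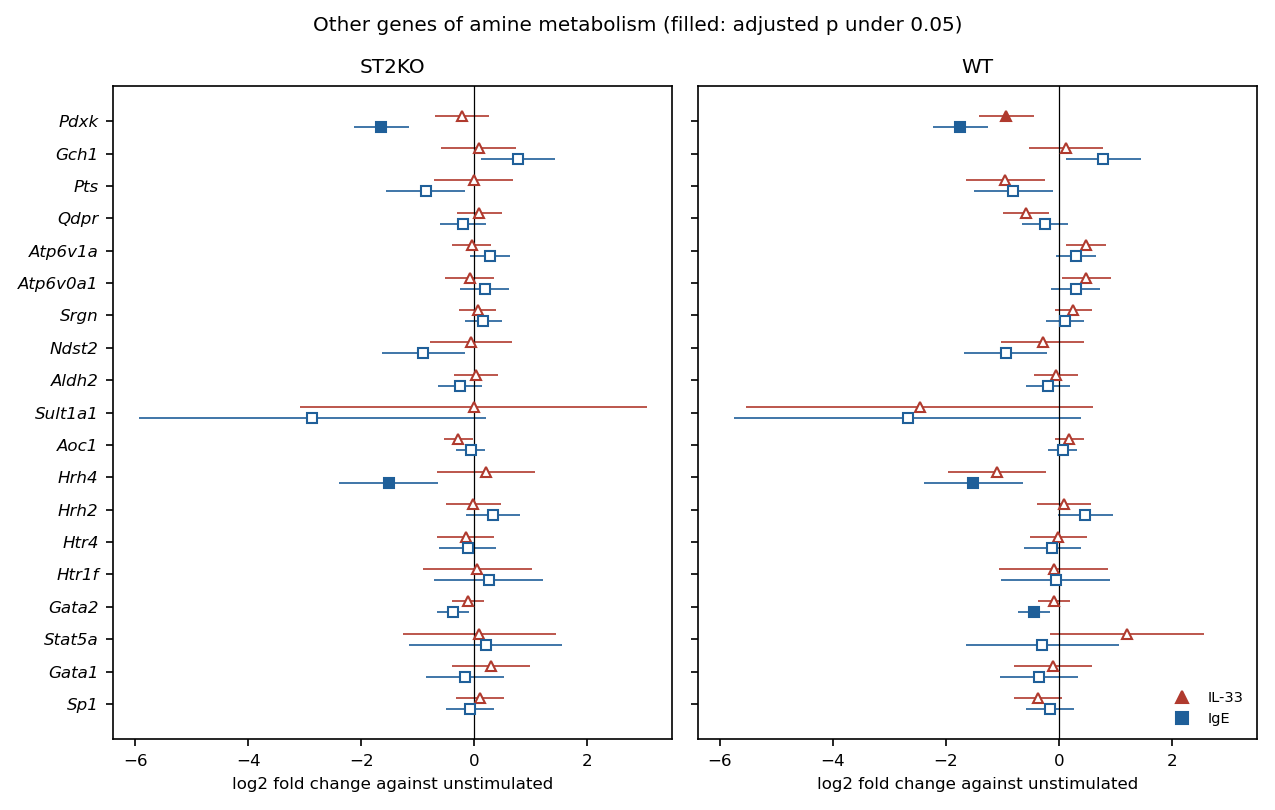
Log2 fold change with IL-33 (triangles) and IgE (squares) against no stimulation for the named genes of the 5 lists, with 95% intervals, in ST2KO cells on the left and WT cells on the right; filled symbols passed an adjusted p of 0.05. Pdxk and Hrh4 lie at -1.65 and -1.52 with IgE in ST2KO cells and at -1.75 and -1.51 in WT cells.

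The genes whose pattern over the 18 arrays was most like that of each member, after the mean of each array number within genotype was taken off, differed between members. For Hdc they were Nsmf (r = 0.987), Ccdc82 (r = 0.984) and Arhgap6 (r = 0.983). For Tph1 they were Smap2 (r = 0.971), Mxd1 (r = 0.969) and Nadk (r = 0.969). For Slc6a4 they were Nqo1 (r = 0.978), Cd82 (r = 0.972) and Il1b (r = 0.971). The best for Maob was Tyms (r = 0.924) and for Slc18a2 Sema3b (r = 0.897). Without taking off these means, r was lower for all of them. It ran from 0.838 to 0.960 for the genes named for Hdc and from 0.904 to 0.928 for those of Tph1. For those of Slc6a4 it ran from 0.632 to 0.958, and it was 0.901 for Tyms and 0.598 for Sema3b. Il1b encodes interleukin-1 beta, and Mxd1 a partner of Max. These genes were picked by their likeness on the same arrays, so the correlations are a description with no test.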

How the data were processed

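Biotin-labelled RNA was hybridised to Illumina arrays, per the labels' protocols. The authors deposited a raw intensity and a detection p-value for each probe and array, per the file headers, and a table of log2 values on which every array had the same distribution; their background method is not given in the sources used here. The intensities were corrected, quantile normalized and put on a log2 scale with neqc (offset 16) of limma 3.58.1 in R 4.3.3. ST2KO IgE replicate 3, incomplete, was placed by rank of the authors' log2 values. Probes detected (p under 0.05) on at least 3 complete arrays were kept, 1 per gene by highest mean level. 1 limma model with a mean per group covered all 18 arrays (12 residual degrees of freedom), with Benjamini-Hochberg adjustment within each of 11 comparisons over 10529 genes at 0.05. The fit was tested on simulated data made with known differences and independent noise on each array. That test did not cover the correlation of same-numbered arrays described below.

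The labels give arrays of a genotype the same numbers across stimuli. Across genes, the residuals of same-numbered arrays correlated at 0.511 to 0.918 in the 18 pairs of 1 genotype. In the 27 pairs between genotypes they correlated at 0.397 to 0.727. Arrays numbered 3 stood apart in each group, which by itself makes same-numbered residuals correlate. These correlations therefore cannot show that same-numbered arrays shared a mouse or culture, and differently numbered arrays were not compared. The main fit left the number out, and a fit with the number as a block is given where it changes a call. The block was shared by both genotypes for ST2KO against WT cells and was set within each genotype for all other comparisons. Probes were named through the platform's gene table and RefSeq symbols; 34885 had 1 symbol, 18 several and 10378 none. The members, pathway lists, tests and alternatives were chosen with earlier results of these data known. Named beside the members were at most 4 genes per list (those called in most comparisons, ties by adjusted p, then the most abundant) and, for each member, the 3 genes of highest correlation. Alternatives tried were median scaling, no background correction, the deposited log2 table, a strict detection filter (p under 0.01 on 6 arrays) or none, mean of probes, each probe, compared groups only, eBayes without trend or robust, the block, no arrays numbered 3, an adjusted p of 0.01, and leaving out each array. The number of arrays limits the precision: the median 95% interval of a difference between groups reached 0.46 to either side, and of a difference of responses 0.65. Basophil samples of the study were not used here.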

Additional observations from a re-analysis of the deposited data

Results flagged for a closer look

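For Hdc, the difference between the genotypes' responses to IL-33, ST2KO minus WT, was -2.19 ± 0.52 on the log2 scale and passed the test of the difference itself (limma interaction, adjusted p = 0.0379). With the replicate block it had an adjusted p of 0.000234, and without the 6 arrays numbered 3 the value was -1.98 ± 0.17. Of 18 fits that each left out an array, 6 kept the call (adjusted p 0.0137 to 0.108 over the 18). The call was also lost under median scaling, without the detection filter, with the compared groups only and at an adjusted p of 0.01. All 3 ST2KO IL-33 arrays, at 12.22, 12.61 and 10.90, were below all 3 WT IL-33 arrays, at 13.86, 13.61 and 13.64. Array 3 of the ST2KO IL-33 and unstimulated groups was lower than the other arrays of its group, and its macrophage and dendritic cell markers had a higher sum (1933 and 1805 there, from lows of 698.5 and 535.3 in those groups), as did its basophil markers (9067 and 9105, from lows of 6635 and 6620); their part in the result was not tested.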

How the results depend on the processing

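Counts are of the 5 tested members called. The causes of these shifts were not tested unless the setting itself is fewer arrays or more genes. The number of all 10529 genes called also moved. With an array left out it was 594 to 1460 for IgE in WT cells and 99 to 577 for the difference of IL-33 responses. The shares of all genes called under the other settings are not given here, so a changed count is not a result about the members. For IgE in WT cells the count was 1 in place of 2, Tph1 being lost, under median scaling, without the detection filter, with the compared groups only and at an adjusted p of 0.01. For IL-33 against IgE in WT cells it was 1 in place of 2, Slc6a4 being lost, under median scaling, without the filter, without the trend, with robust eBayes and at an adjusted p of 0.01. For the difference of IL-33 responses it was 0 in place of 1 under median scaling, without the filter, with the compared groups only and at an adjusted p of 0.01, and 2 without background correction. Fitting only the compared groups gave 0 in place of 1 for IL-33 against IgE in ST2KO cells. For ST2KO against WT cells with IL-33 the count was 2 in place of 3 with the compared groups only, Hdc being lost (adjusted p = 0.0703), and at an adjusted p of 0.01, Slc6a4 being lost (adjusted p = 0.0110). The replicate block gave 2 in place of 1 for IgE and for IL-33 against IgE in ST2KO cells and 3 in place of 1 for the difference of IL-33 responses; it changed no other call of a member. Without the 6 arrays numbered 3 the counts were 3 for IgE and 3 for IL-33 against IgE in ST2KO cells, 3 in place of 2 for each of these in WT cells (Slc6a4 and Hdc gained), 2 for ST2KO against WT without stimulation, 1 with IgE, 1 for the difference of IgE responses and 3 for that of IL-33 responses, and Slc6a4 in ST2KO against WT cells with IgE turned to 0.78 ± 0.18 (adjusted p = 0.0106), against -0.22 ± 0.63 with all arrays. Leaving out each array in turn gave 1 to 2 for IgE and 3 for IL-33 in WT cells, 1 to 2 for IL-33 against IgE in WT cells, 1 for IgE, 0 for IL-33 and 1 for IL-33 against IgE in ST2KO cells, 0 for ST2KO against WT unstimulated and with IgE, 2 to 3 with IL-33, 0 for the difference of IgE responses and 0 to 2 for that of IL-33 responses. Median scaling moved the median of all genes to -0.15 for IL-33 in WT cells, -0.12 for unstimulated ST2KO against WT cells and 0.17 for the difference of IL-33 responses (log2). The rank-placed array limits every Slc6a4 value with IgE in ST2KO cells, and signal near the median probe limits Hnmt and the dimmer Maob and Slc6a4 probes. Of 209 results for the 19 named genes of the pathway lists, 11 were called, where 0% to 12.6% of all genes were called by comparison. These genes were named partly because they were called. The block added 37 calls, leaving out the 6 arrays numbered 3 added 53, and neither lost any. The shares of all genes called under these settings are not given here, so the added calls are not a result about the lists.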

Other observations

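Ddc, which encodes the decarboxylase that completes serotonin synthesis, was singled out after its values were seen. On arrays numbered 1 and 2 it lay at 6.45 to 6.96 in ST2KO cells and at 7.57 to 8.75 in WT cells, with no overlap. On arrays numbered 3 it lay at 8.65 to 9.50 in ST2KO cells and at 8.12 to 8.70 in WT cells. ST2KO against WT cells differed by -0.95 ± 0.72 without stimulation, -0.84 ± 0.72 with IgE and -0.54 ± 0.72 with IL-33 (limma adjusted p = 1.0, 1.0 and 0.700), so no comparison of the genotypes passed.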
